A study of Mus musculus with 6 samples.

Results

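The 10 genes described here are 5 fibroblast growth factor (FGF) ligands, Fgf3, Fgf4, Fgf8, Fgf17 and Fgf18, and 5 genes that FGF signalling through the ERK kinases switches on, Spry2, Spry4, Dusp6, Etv4 and Etv5. They were chosen by name from the FGF genes known in the posterior mouse embryo, out of 37310 gene identifiers counted. All 10 were found in the files, and all 10 passed the filter on low counts, which kept 15471 genes. No member passed the test between mutant and wild-type tailbuds, while Fgf8, Fgf17, Fgf18 and Spry4 spread widely among the 3 mutant libraries.

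FGF ligands are secreted proteins that bind receptor tyrosine kinases with heparan sulphate as a cofactor and act mainly through RAS, RAF, MEK and ERK. In the tailbud they are made by the posterior progenitors and the early presomitic mesoderm, where they hold cells in an immature, migratory state, and their level falls towards the somites. The pathway limits itself: it induces Sprouty proteins and the phosphatase DUSP6, which damp ERK activity, and the transcription factors ETV4 and ETV5, which carry part of its output, so these transcripts are widely used as readouts of FGF activity.

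Polyadenylated RNA of tailbuds at embryonic day 9.5 was sequenced in 3 libraries homozygous for Danforth's short tail (Sd/Sd) and 3 wild-type libraries (WT/WT, here WT), all from an outbred CD-1 colony. Danforth's short tail is a semidominant mutation in which an inserted element activates the nearby gene Ptf1a, a transcription factor of pancreas and neurons, and the tail and notochord are truncated. The tailbud was cut off just ahead of the last somite, so each sample is a mixture of progenitors, presomitic mesoderm, neural tube, hindgut and skin, and some libraries hold the tailbuds of a pair of embryos. In such bulk samples, fewer cells of a type and less RNA per cell cannot be told apart. Whether the libraries of a group stem from different litters is not stated, and the tests therefore speak of variation among these 6 libraries.

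The libraries held 41788978 to 62296689 counts in Sd/Sd and 42352598 to 52767718 in WT. Levels are given as CPM, the count of a gene relative to the library's total, after TMM scaling. Ptf1a, the gene that the mutation activates, lay at 13.8 to 20.6 CPM in Sd/Sd and at 0.0237 to 0.0948 CPM in WT, so each library matched its label. All 13 markers of posterior progenitors and presomitic mesoderm were present in both groups, T (Brachyury) at 77.1 to 203 CPM in Sd/Sd and 144 to 184 CPM in WT. Among the Sd/Sd libraries, replicate 3 stood apart in somite genes: its 14 somite markers summed to 105 CPM, against 587 and 700 CPM in Sd/Sd replicates 1 and 2 and 347 to 525 CPM in WT. Replicate 2 had the lowest sum of the 13 posterior markers, 541 CPM, against 928 and 1157 CPM in Sd/Sd replicates 1 and 3 and 818 to 1076 CPM in WT. The 5 neural tube markers tested were lowest in Sd/Sd replicate 3 as well, at 44.2 CPM in sum, against 108 and 130 CPM in Sd/Sd replicates 1 and 2 and 80.3 to 115 CPM in WT. The sums of midline and gut markers did not overlap between genotypes: the 5 of notochord summed to 16.4 to 23.6 CPM in Sd/Sd and 40.6 to 46.4 CPM in WT, with 1, Shh, past the test, and the 8 of hindgut to 176 to 186 CPM in Sd/Sd and 226 to 253 CPM in WT, with 0 past it. The part of these sums in the FGF values was not tested.

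Of the 10 members, 0 passed an adjusted p of 0.05 between Sd/Sd and WT (edgeR quasi-likelihood test, Benjamini-Hochberg over all genes tested), against 0.0582% of all genes tested. At an unadjusted p of 0.05 the count was also 0 of 10, against 2.90% of all genes, and DESeq2 and limma-voom called 0 as well. In 0 of 10 did the CPM of the groups lie apart without overlap, against 7.68% of all genes. The log2 fold changes of the ligands, Sd/Sd over WT, ran from -0.28 to 0.04 with a median of -0.19, and those of the feedback genes from -0.11 to 0.04 with a median of -0.04, beside a median of -3.4e-04 over all genes tested. Of the 10, 7 had a log2 fold change below 0, as had 50.1% of all genes. Every member had an adjusted p of 1.00 in this test.

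**Figure D1:**
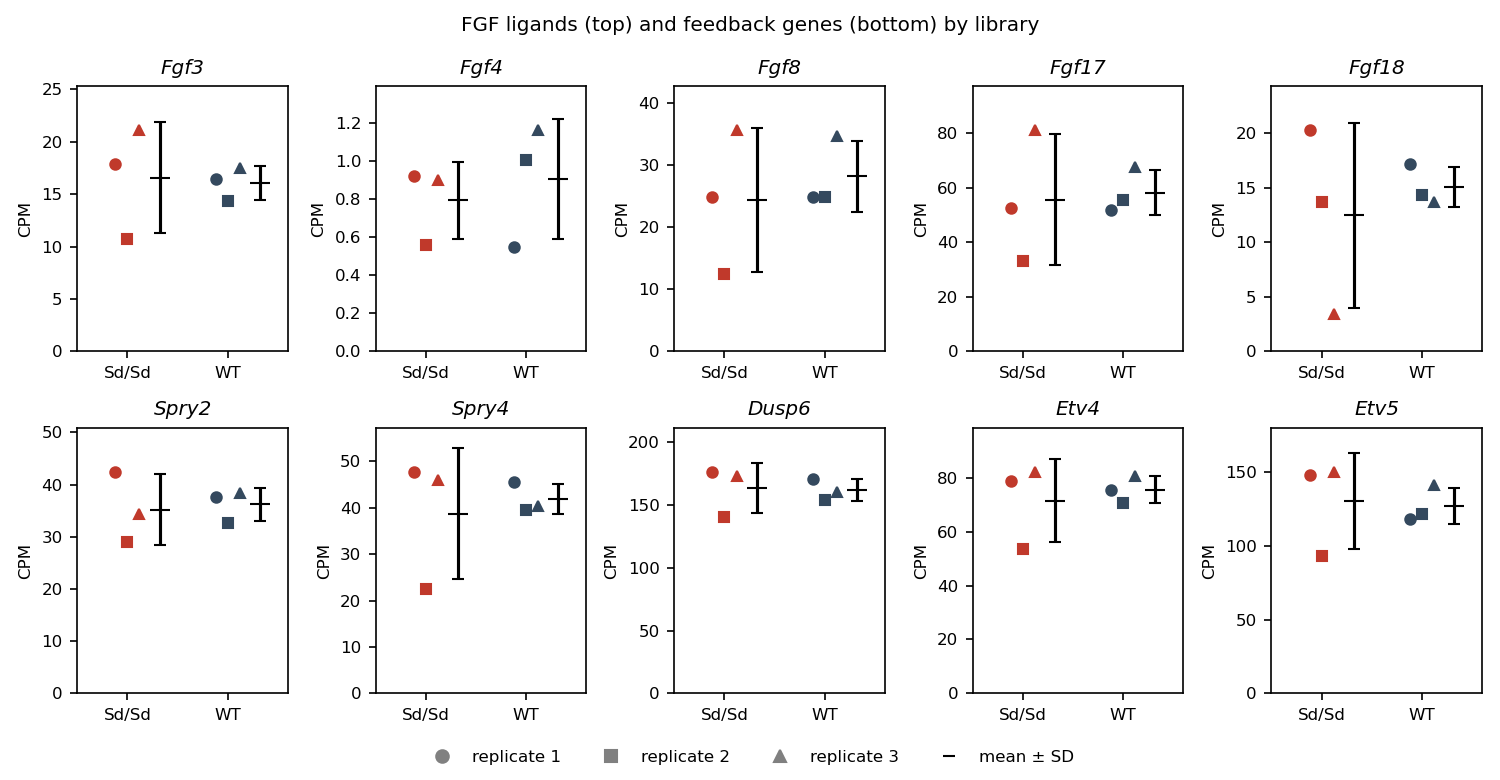
Level of each FGF ligand and feedback gene in CPM (vertical axis, from 0) in the 3 Sd/Sd and 3 WT libraries, with the group mean ± SD as a black bar. Sd/Sd replicate 2 (square) is the lowest of the 6 libraries for 8 of the 10 genes, and Sd/Sd replicate 3 (triangle) is the lowest for Fgf18.

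Fgf8, the ligand best known for the posterior FGF gradient, had 24.87, 12.5 and 35.6 CPM in Sd/Sd replicates 1 to 3, against 24.96, 24.90 and 34.8 CPM in WT replicates 1 to 3. Mutant replicate 1 lay just below the lowest wild-type library, replicate 3 just above the highest, and replicate 2 far below, at 0.442 of the WT mean, so the groups overlapped. Fgf8 (ENSMUSG00000025219.7, chromosome 19) averaged 24.3 ± 11.6 CPM in Sd/Sd and 28.2 ± 5.68 CPM in WT (SD, n = 3 each), a log2 fold change of -0.22 (SE 0.40, 95% interval -1.22 to 0.79, edgeR adjusted p = 1.00). The sign turned without Sd/Sd replicate 2, where the log2 fold change of Fgf8 was 0.10 (edgeR adjusted p = 0.961). Without Sd/Sd replicate 3 it was -0.60 (edgeR adjusted p = 0.992).

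Fgf17, a close relative of Fgf8 in sequence and expressed beside it in the tailbud, shared its lowest and its highest library. Fgf17 had 52.7, 33.2 and 81.1 CPM in Sd/Sd replicates 1 to 3, against 51.7, 55.4 and 67.6 CPM in WT replicates 1 to 3. Here the mutant libraries lay on both sides of the wild-type range, replicate 2 below and replicate 3 above. Fgf17 (ENSMUSG00000022101.5, chromosome 14) averaged 55.7 ± 24.1 CPM in Sd/Sd and 58.2 ± 8.31 CPM in WT (SD, n = 3 each), a log2 fold change of -0.06 (SE 0.34, 95% interval -0.93 to 0.80). Its log2 fold change was 0.20 without Sd/Sd replicate 2 and -0.44 without Sd/Sd replicate 3. The ratio of Fgf8 to Fgf17 CPM, which compares each gene with itself across libraries, was 0.471, 0.376 and 0.439 in Sd/Sd and 0.483, 0.450 and 0.515 in WT, so the mutant libraries overlapped WT with replicate 2 the lowest. Between libraries of the same number the ratio was lower in Sd/Sd in 3 of 3 (2-sided exact paired permutation p = 0.25, the smallest that 3 pairs can give). The labels state no such pairing, and this p cannot decide whether the ratio differs. The ratio of Etv4 to Etv5 was also lower in Sd/Sd for each number, and that of Spry4 to Spry2 was not.

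Fgf3, a ligand whose loss in mice gives a short, curled tail and inner ear defects, followed the same pattern with smaller swings. Its values were 17.9, 10.8 and 21.1 CPM in Sd/Sd, against 16.4, 14.3 and 17.5 CPM in WT. Mutant replicate 2 was again the lowest library and mutant replicate 3 the highest. Fgf3 (ENSMUSG00000031074.8, chromosome 7) averaged 16.6 ± 5.29 CPM in Sd/Sd and 16.1 ± 1.62 CPM in WT (SD, n = 3 each), a log2 fold change of 0.04 (SE 0.23, 95% interval -0.49 to 0.57).

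Fgf4, which acts together with Fgf8 in presomitic mesoderm, was the rarest member. It lies beside Fgf3 on chromosome 7 (ENSMUSG00000050917.4) and had 38, 35 and 44 counts in Sd/Sd, against 29, 53 and 49 counts in WT. The exact Poisson 95% interval ran from 19.4 to 41.6 around the lowest of these, 29 in WT replicate 1, and from 39.7 to 69.3 around the highest, 53 in WT replicate 2, and covers counting error only. In CPM it averaged 0.793 ± 0.203 in Sd/Sd and 0.904 ± 0.317 in WT (SD, n = 3 each), a log2 fold change of -0.19 (SE 0.39, 95% interval -1.07 to 0.68). These libraries were compatible with any difference inside that interval, in either direction.

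Fgf18, another close relative of Fgf8 and a growth factor of developing bone, departed from the other ligands. It had 20.3, 13.7 and 3.45 CPM in Sd/Sd replicates 1 to 3, against 17.2, 14.4 and 13.7 CPM in WT. Mutant replicate 3, the highest library for Fgf3, Fgf8 and Fgf17, was the lowest for Fgf18 at 0.229 of the WT mean, while mutant replicates 1 and 2 lay above and just below the WT range. Fgf18 (ENSMUSG00000057967.6, chromosome 11) averaged 12.5 ± 8.48 CPM in Sd/Sd and 15.1 ± 1.84 CPM in WT (SD, n = 3 each), a log2 fold change of -0.28 (SE 0.63, 95% interval -1.89 to 1.34). Without Sd/Sd replicate 3 its log2 fold change was 0.17 (edgeR adjusted p = 0.994).

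The highest of the 6 libraries exceeded the lowest by 1.25-fold for Dusp6 to 2.12-fold for Spry4 among the feedback genes, and by 1.96-fold for Fgf3 to 5.88-fold for Fgf18 among the ligands. Dusp6, which encodes the phosphatase that removes the activating phosphates from ERK, had 176, 141 and 173 CPM in Sd/Sd, against 171, 154 and 160 CPM in WT. Dusp6 (ENSMUSG00000019960.6, chromosome 10) averaged 163 ± 19.6 CPM in Sd/Sd and 162 ± 8.59 CPM in WT (SD, n = 3 each), and its log2 fold change of 0.02 (SE 0.09) had the narrowest interval of the 10 members, -0.20 to 0.23. Mutant replicates 1 and 3 lay above all WT libraries and replicate 2 below them.

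Spry4, a Sprouty inhibitor of RAS and ERK signalling, was the feedback gene with the widest range. It had 47.7, 22.5 and 46.1 CPM in Sd/Sd, against 45.5, 39.6 and 40.4 CPM in WT, so mutant replicates 1 and 3 lay above all WT libraries and replicate 2 at 0.538 of the WT mean. Spry4 (ENSMUSG00000024427.6, chromosome 18) had a log2 fold change of -0.11 (SE 0.29, 95% interval -0.83 to 0.61), which was 0.16 without Sd/Sd replicate 2. Spry2, its paralogue, had 42.4, 28.9 and 34.3 CPM in Sd/Sd, against 37.5, 32.6 and 38.4 CPM in WT (ENSMUSG00000022114.4, chromosome 14), a log2 fold change of -0.04 (SE 0.14, 95% interval -0.36 to 0.27). The ratio of Spry4 to Spry2 CPM was 1.13, 0.778 and 1.34 in Sd/Sd and 1.21, 1.21 and 1.05 in WT, below the WT range in mutant replicate 2 and above it in mutant replicate 3.

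Etv4 and Etv5 encode ETS-family transcription factors of the PEA3 group. Etv4 had 78.6, 53.7 and 82.0 CPM in Sd/Sd, against 75.5, 70.7 and 80.5 CPM in WT (ENSMUSG00000017724.8, chromosome 11), a log2 fold change of -0.08 (SE 0.15, 95% interval -0.44 to 0.28). Etv5 had 149, 93.0 and 150 CPM in Sd/Sd, against 119, 122 and 141 CPM in WT (ENSMUSG00000013089.8, chromosome 16), a log2 fold change of 0.04 (SE 0.19, 95% interval -0.43 to 0.50). In both, mutant replicates 1 and 3 were at or near the top of the 6 libraries and mutant replicate 2 was the lowest. The ratio of Etv4 to Etv5 CPM kept within a narrower band than that of the Sprouty pair, at 0.529, 0.578 and 0.547 in Sd/Sd and 0.637, 0.580 and 0.571 in WT.

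**Figure D2:**
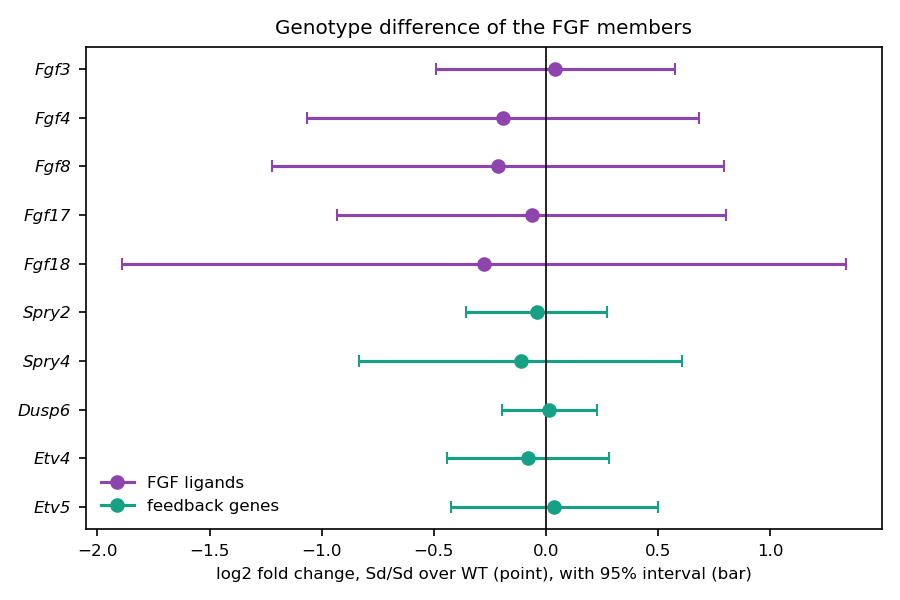
Log2 fold change of each gene, Sd/Sd over WT (horizontal axis), as a point with its 95% interval from the edgeR fit as a bar, ligands in purple and feedback genes in green. All 10 intervals cross 0, from -0.20 to 0.23 for Dusp6, the narrowest, to -1.89 to 1.34 for Fgf18, the widest.

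Levels can be compared between genes only per length, as CPM per kilobase of exons (RPKM; exon length from GENCODE M21, which may differ from the annotation used for counting). Dusp6 was the most abundant member, at 52.1 ± 6.27 RPKM in Sd/Sd and 51.6 ± 2.74 RPKM in WT. Fgf17 followed with 33.0 ± 14.3 RPKM in Sd/Sd and 34.5 ± 4.92 RPKM in WT, then Etv5 with 31.8 ± 7.93 RPKM in Sd/Sd and 31.0 ± 2.96 RPKM in WT. Etv4 had 23.0 ± 4.98 RPKM in Sd/Sd and 24.3 ± 1.59 RPKM in WT, and Fgf8 had 18.0 ± 8.59 RPKM in Sd/Sd and 20.9 ± 4.21 RPKM in WT (SD, n = 3 each). Per length, Dusp6 exceeded every ligand in all 6 libraries.

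Below these came Spry2, at 16.9 ± 3.24 RPKM in Sd/Sd and 17.3 ± 1.51 RPKM in WT, and Fgf18, at 10.5 ± 7.15 RPKM in Sd/Sd and 12.7 ± 1.55 RPKM in WT. Spry4 had 8.15 ± 2.96 RPKM in Sd/Sd and 8.80 ± 0.675 RPKM in WT, and Fgf3 had 7.13 ± 2.27 RPKM in Sd/Sd and 6.92 ± 0.696 RPKM in WT. Fgf4 was far below the rest, at 0.248 ± 0.0635 RPKM in Sd/Sd and 0.283 ± 0.0992 RPKM in WT. In WT the ranges of neighbours in this order overlapped for Fgf17 and Etv5 and for Etv4 and Fgf8, and not for the other 7 neighbouring pairs. In Sd/Sd all neighbouring ranges overlapped except those of Fgf3 and Fgf4. Within single libraries the order of neighbours held in all 6 for 6 of the 9 pairs.

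Promoter sequence is shown for 4 members that were lowest in Sd/Sd replicate 2 (Fgf3, Spry2, Dusp6, Etv5) and for Fgf18, which was lowest in Sd/Sd replicate 3. The set of RefSeq starts used here, on GRCm38.p6, held 6 of the 10 members. Each line holds the 250 bases before the start on the gene's strand. A strict form of the ETS factor motif, CGGAA or its reverse TTCCG, is in capitals. The shorter core, GGAA or its reverse TTCC, also occurs in windows without capitals and was not counted. Fgf4 also had a start in this set, and its window, not shown, held CGGAA or TTCCG 0 times. Etv5 has a pair of starts, of which the upstream one is shown.
Dusp6, chr10:99262981-99263230, plus strand: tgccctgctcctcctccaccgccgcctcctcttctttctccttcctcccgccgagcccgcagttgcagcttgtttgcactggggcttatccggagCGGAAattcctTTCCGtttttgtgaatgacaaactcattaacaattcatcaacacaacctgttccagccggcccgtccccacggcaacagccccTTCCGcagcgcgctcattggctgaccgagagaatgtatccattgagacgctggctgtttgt
Etv5, chr16:22439571-22439820, minus strand: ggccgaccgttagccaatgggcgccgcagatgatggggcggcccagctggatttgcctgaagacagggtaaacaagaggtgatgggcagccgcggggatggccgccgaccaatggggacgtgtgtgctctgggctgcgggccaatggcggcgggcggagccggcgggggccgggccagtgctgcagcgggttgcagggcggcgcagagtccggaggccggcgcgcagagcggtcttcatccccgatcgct
Spry2, chr14:105896820-105897069, minus strand: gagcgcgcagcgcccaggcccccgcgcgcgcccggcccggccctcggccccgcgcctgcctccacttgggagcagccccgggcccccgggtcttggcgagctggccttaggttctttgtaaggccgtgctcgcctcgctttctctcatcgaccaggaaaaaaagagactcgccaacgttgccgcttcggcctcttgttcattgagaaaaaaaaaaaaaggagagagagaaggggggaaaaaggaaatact
Fgf3, chr7:144838362-144838611, plus strand: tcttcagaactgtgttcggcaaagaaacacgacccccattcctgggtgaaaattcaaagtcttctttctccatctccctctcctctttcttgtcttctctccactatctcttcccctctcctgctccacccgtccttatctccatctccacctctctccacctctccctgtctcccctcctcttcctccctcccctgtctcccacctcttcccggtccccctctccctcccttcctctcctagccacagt
Fgf18, chr11:33147401-33147650, minus strand: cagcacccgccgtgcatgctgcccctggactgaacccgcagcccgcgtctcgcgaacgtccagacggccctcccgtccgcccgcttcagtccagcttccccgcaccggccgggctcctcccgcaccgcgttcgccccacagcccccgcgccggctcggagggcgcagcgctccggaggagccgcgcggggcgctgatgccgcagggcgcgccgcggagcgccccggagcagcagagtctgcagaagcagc

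Dusp6 held this strict form 3 times, at 155, 144 and 61 bases before the start, and the other windows shown held it 0 times. Of 32851 promoter windows of this length, 25.2% held CGGAA or TTCCG at least once. The CCAAT box (CCAAT or ATTGG) stood 3 times in the Etv5 window shown and 1 time each in those of Dusp6 and Fgf4. Of all windows, 33.8% held it. The TATA box (TATAAA) and the T-box half-site (GGTGTG), or their reverses, stood 0 times in the windows of these members. The shares of all windows with them were 12.4% and 16.3%. GC content was 77.2% for Fgf18, 71.2% for Etv5, 62.4% for Spry2, 56.4% for Dusp6 and 55.2% for Fgf3, beside a median of 52.4% over all windows. The motifs were chosen with the expression values known, and a match is a description of letters only.

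Most members were lowest in the same mutant library. In 8 of 10 members Sd/Sd replicate 2 was the lowest of the 6 libraries, against 19.0% of all genes tested. The coefficient of variation was larger in Sd/Sd than in WT for 9 of 10, Fgf4 being the exception, against 68.1% of all genes. It reached 68.0% in Sd/Sd and 12.2% in WT for Fgf18. For Fgf8 it was 47.7% in Sd/Sd and 20.1% in WT, for Fgf17 43.3% in Sd/Sd and 14.3% in WT, and for Spry4 36.4% in Sd/Sd and 7.67% in WT. Dusp6 had the smallest, 12.03% in Sd/Sd and 5.32% in WT.

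**Figure D3:**
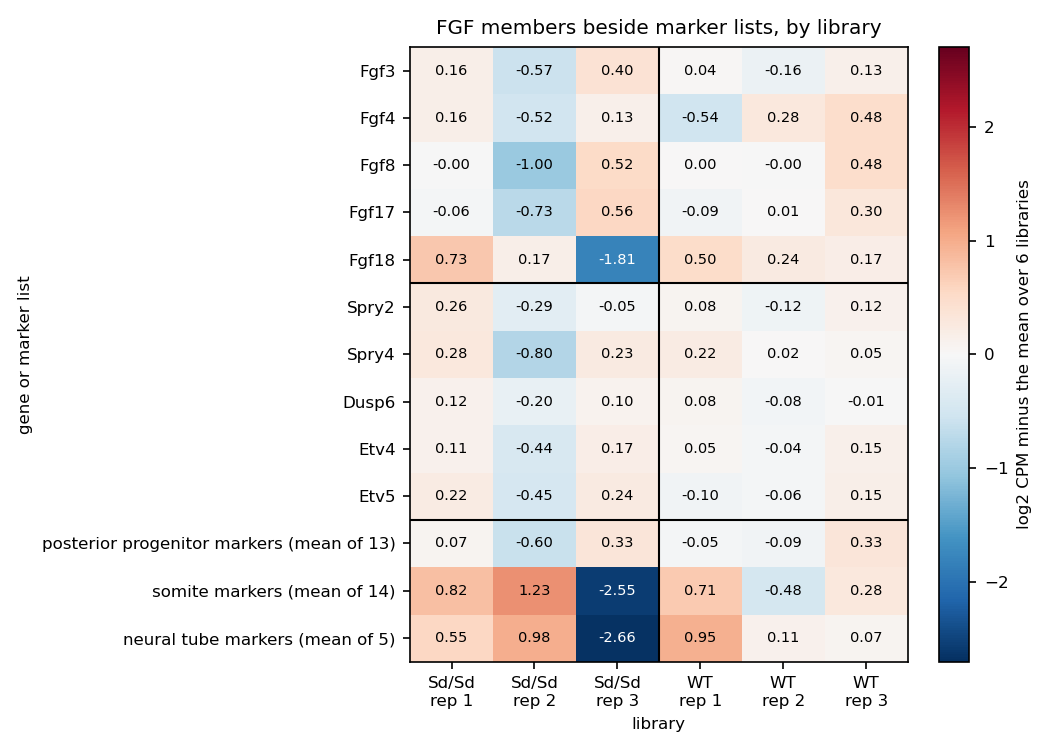
Log2 CPM of each gene in each library minus its mean over the 6 libraries (colour and printed value), with the mean of the 13 posterior progenitor markers of the 14 somite markers and of the 5 neural tube markers below. In Sd/Sd replicate 2, Fgf8 stands at -0.996 and the posterior markers at -0.60; in Sd/Sd replicate 3, Fgf18 stands at -1.81, the somite markers at -2.55 and the neural tube markers at -2.66.

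In sum and on average, the posterior marker list moved with Fgf3, Fgf8 and Fgf17, as the marker sums above and the map of centred levels show. Not every marker followed: Cdx1 was lowest in Sd/Sd replicate 3 and Hes7 in WT replicate 1. The other markers of the list were lowest in Sd/Sd replicate 2. Mean centred log2 CPM of the 13 posterior markers was 0.07, -0.60 and 0.33 in Sd/Sd replicates 1 to 3 and -0.05, -0.09 and 0.33 in WT replicates 1 to 3. On the same scale Fgf8 stood at -0.996 in Sd/Sd replicate 2, at 0.52 in Sd/Sd replicate 3 and at 0.48 in WT replicate 3, with the other 3 libraries between -0.0026 and 0.0026. Of the 13 markers 0 passed the genotype test, with 1, Sp5, at an unadjusted p under 0.05, and 0 were at 0 counts. The part of this marker difference in the values of the FGF genes was not tested.

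Each member was also expressed per 100 CPM of summed posterior markers, a measure chosen after the values were seen. On it the span between the highest and the lowest library was narrower than in CPM for 7 of the 10 members and wider for 3. The share of all genes that narrowed was not computed, so this count cannot be read as particular to the FGF genes. The span narrowed to 1.40-fold for Fgf8, against 2.86-fold in CPM, and to 1.23-fold for Fgf17, 1.24-fold for Fgf3 and 1.48-fold for Spry4. It widened to 1.75-fold for Dusp6, against 1.25-fold in CPM, to 1.81-fold for Spry2 and to 8.49-fold for Fgf18.

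The groups overlapped on this measure for all 10 members, with 2-sided exact permutation p from 0.3 to 1 (12 ratios were tested, and 0.1 is the smallest p that 3 against 3 libraries can give). Fgf8 had 2.68, 2.31 and 3.08 CPM in Sd/Sd and 3.05, 3.04 and 3.23 CPM in WT (exact permutation p = 0.3). Between libraries of the same number, Fgf8 was lower in Sd/Sd in 3 of 3, by differences of -0.37, -0.73 and -0.15 CPM (exact paired permutation p = 0.25, the smallest possible). Of the 10 members, 1 differed in 1 direction in all 3, and the share over all genes was not computed. The labels state no such pairing, and a p that cannot fall below 0.25 cannot decide whether Fgf8 differs. Dusp6 had 19.0, 26.0 and 14.98 CPM in Sd/Sd and 20.9, 18.8 and 14.9 CPM in WT, with Sd/Sd replicate 2 now the highest library.

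In Sd/Sd replicate 3, Fgf18 was low together with the somite and the neural tube markers, while the posterior markers were not. The mean centred log2 CPM of the 14 somite markers was 0.82, 1.23 and -2.55 in Sd/Sd and 0.71, -0.48 and 0.28 in WT, and that of the 5 neural tube markers was 0.55, 0.98 and -2.66 in Sd/Sd and 0.95, 0.11 and 0.07 in WT. Fgf18 itself stood at 0.73, 0.17 and -1.81 in Sd/Sd and 0.50, 0.24 and 0.17 in WT. Somite factors at their lowest in that library included Meox1, at 203, 265 and 12.8 CPM in Sd/Sd against 164, 121 and 128 CPM in WT, and Tcf15, at 29.5, 31.6 and 2.63 CPM in Sd/Sd against 27.2, 17.3 and 20.4 CPM in WT. Per 100 CPM of summed somite markers, Fgf18 had 3.45, 1.95 and 3.29 CPM in Sd/Sd and 3.27, 4.14 and 3.60 CPM in WT (2-sided exact permutation p = 0.3). Per 100 CPM of neural tube markers it had 18.8, 10.5 and 7.80 CPM in Sd/Sd and 14.9, 17.9 and 16.8 CPM in WT (exact permutation p = 0.4). Of the 14 somite and the 5 neural tube markers 0 passed the genotype test, and the part of either list in the Fgf18 values was not tested.

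Fgf8, Fgf4 and Fgf17 are also made by the apical ridge of the limb bud, so limb markers were set beside them. The 10 limb markers summed to 427, 383 and 496 CPM in Sd/Sd and 430, 460 and 432 CPM in WT, and 0 passed the genotype test. Pitx1 and Tbx4, hindlimb field genes, made up most of that sum, at 165 to 188 and 72.4 to 128 CPM in Sd/Sd and 175 to 191 and 93.3 to 110 CPM in WT. Sp9, a gene of the ridge itself, was at 1.24 to 2.12 CPM in Sd/Sd and 1.48 to 1.95 CPM in WT, and its part in the Fgf8 level was not tested.

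Genes with the most similar profile were sought for the ligand and the feedback gene of widest range, Fgf18 and Spry4, among 10530 genes of at least 5 CPM. Likeness was the root-mean-square difference of centred log2 CPM over the 6 libraries, whose median over all candidates was 0.84 for Fgf18 and 0.38 for Spry4. Nearest to Fgf18 were Stum at 0.17, the forkhead genes Foxc2 at 0.17 and Foxd1 at 0.26, the guidance cue gene Ntn1 at 0.27 and ENSMUSG00000067833.2 at 0.29. Foxc2, a factor of paraxial mesoderm and somites and itself on the somite list, had 85.7, 64.8 and 15.3 CPM in Sd/Sd and 63.5, 48.8 and 49.7 CPM in WT, with the same single low library as Fgf18. Nearest to Spry4 were Zfp654 at 0.14, Smpdl3b at 0.15 and Hoxc10, Atp10a and the desmosome gene Dsp at 0.16 each. Hoxc10, a posterior Hox gene, had 197, 120 and 215 CPM in Sd/Sd and 189, 204 and 219 CPM in WT.

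Beyond the members, 107 genes of the FGF pathway were listed by role and 90 passed the filter. Of these 90, 0 passed the genotype test in either direction with edgeR, DESeq2 or limma-voom, and 1 had an unadjusted p under 0.05 with edgeR. In all, 46 had a log2 fold change below 0 and 44 above it, with a median of -0.0061, and the groups lay apart without overlap in 5 of 90, beside the 7.68% of all genes. Of the 17 that did not pass the filter, 9 lie on chromosome X, where every identifier is listed at 0 in all libraries, so they were not measured here.

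Among the receptors and co-receptors, 0 of 11 tested passed, with a median log2 fold change of -0.03. Fgfr1, the main receptor of the tailbud mesoderm, had 278, 252 and 208 CPM in Sd/Sd, against 267, 241 and 245 CPM in WT (log2 fold change -0.03, SE 0.10, 95% interval -0.27 to 0.21); it was named after its values were seen. The smallest p among receptors belonged to Fgfr4, at 4.39 ± 1.66 CPM in Sd/Sd and 5.61 ± 1.77 CPM in WT (log2 fold change -0.36, SE 0.34), then Flrt2 and Klb, with log2 fold changes of 0.15 and -0.27. Among other FGF family genes, a list that includes Fgf11, Fgf12 and Fgf14, which are not secreted ligands, 0 of 10 tested passed. The smallest p belonged to Fgf1, with 0.475 ± 0.0757 CPM in Sd/Sd and 0.782 ± 0.295 CPM in WT and no overlap (log2 fold change -0.70, SE 0.39), then Fgf10, a limb bud ligand, at 0.35 and Fgf9 at -0.38 (SE 0.20 and 0.23).

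In the adaptors and RAS/ERK cascade, 0 of 22 passed and the log2 fold changes lay between -0.10 and 0.26. Rps6ka2, which encodes a kinase that ERK activates, gave the upper end, with 85.9 ± 11.95 CPM in Sd/Sd and 71.7 ± 6.83 CPM in WT (SD, n = 3 each; log2 fold change 0.26, SE 0.11, edgeR adjusted p = 1.00). Ptpn11, the gene of the phosphatase SHP2, and Grb2, an adaptor, had log2 fold changes of 0.08 each. Other feedback inhibitors had 0 of 16 past the test and a median log2 fold change of -0.0063, with Dusp2 at -0.35, Dusp1 at -0.20 and Dusp14 at -0.23 (SE 0.20, 0.12 and 0.15) holding the smallest p. Other genes induced by ERK had 0 of 12 past and a median of -0.07, with Ier2 at -0.10, Phlda1 at -0.22 and Junb at -0.19. Genes of heparan sulphate, the FGF cofactor, had 0 of 19 past and a median of -0.01. Sdc4, a syndecan, had 10.8 ± 1.09 CPM in Sd/Sd and 13.05 ± 0.350 CPM in WT with no overlap (log2 fold change -0.27, SE 0.12). Hs6st1 and Sdc3 had log2 fold changes of -0.25 and -0.14.

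**Figure D4:**
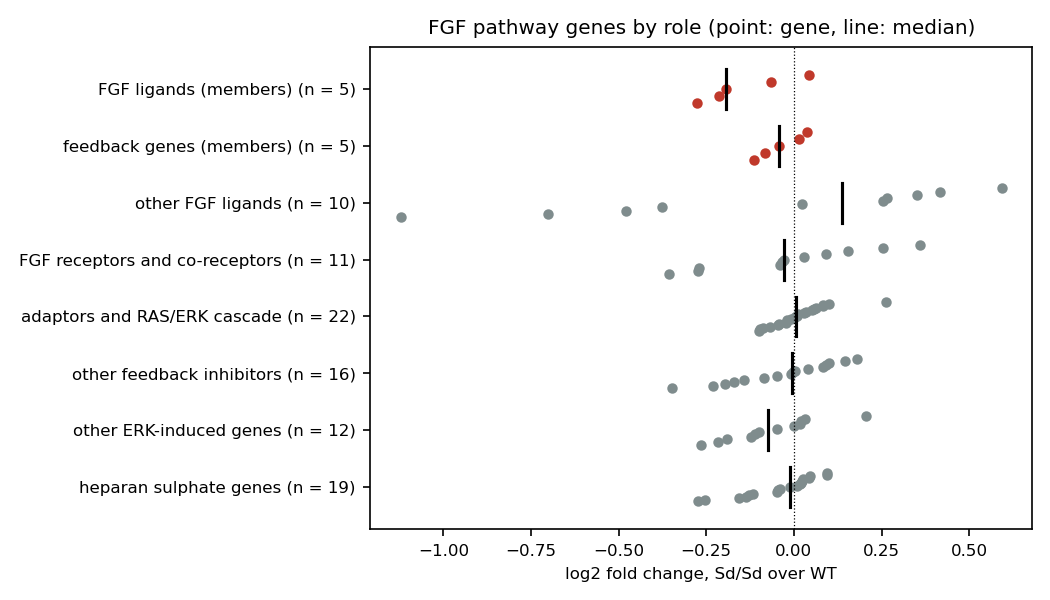
Log2 fold change, Sd/Sd over WT (horizontal axis), of each tested gene (points) in the member groups (red) and 6 further groups of FGF pathway genes (grey), with the group median as a line. Medians lie between -0.19 for the 5 ligands described here and 0.14 for 10 other FGF family genes, and 0 genes shown passed an adjusted p of 0.05. The group labelled other FGF ligands includes Fgf11, Fgf12 and Fgf14, which are not secreted ligands.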

How the data were processed

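Raw counts per Ensembl gene identifier, 1 library per file, were deposited by the authors; the submitters' processing notes name STAR 2.5.2b, SAMtools, DESeq2, CASAVA and bcl2fastq 2.17.1.14, and genome build mm9. How reads were assigned to genes and strands, and with which annotation, is not given in the sources used, so antisense reads cannot be told apart. In GENCODE M21 (GRCm38) Spry4 alone among the members overlaps other gene models, a pair on the opposite strand. Symbols from that release named 32620 of 37310 identifiers.

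The filter on low counts was edgeR's filterByExpr with a minimum count of 10 and a minimum total of 15, and Sd/Sd was compared with WT in edgeR 4.0.16 (R 4.3.3; TMM, robust dispersions, glmQLFit and glmQLFTest, 2-sided), adjusted by Benjamini-Hochberg over 15471 genes, with a threshold of 0.05. The script was checked on simulated counts. The SE is the size of the log2 fold change over the square root of F, and 95% intervals use the t distribution of the fit. Log2 CPM used a prior count of 2. Alternatives used DESeq2 1.42.0, limma-voom (limma 3.58.1), other normalizations, filters and dispersions, a replicate block and leaving out each library.

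Libraries with the same number in the labels deviated together from their group means, with correlations over 15471 genes of 0.194, 0.144 and 0.275 for numbers 1 to 3. Sd/Sd replicate 2 and WT replicate 1 correlated at 0.182 as well, and the labels give no source for a pairing. No pair of libraries within a group agreed within sampling noise.

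The members and gene lists were chosen with earlier results of these data known. Named are all 10 members, from each pathway list the called genes, or the 3 of smallest p where none was called, and the 5 nearest profiles to the widest-ranging ligand and feedback gene of at least 1 CPM; others are said to be chosen later or are listed markers.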

Additional observations from a re-analysis of the deposited data

How the results depend on the processing

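The count of FGF members past the threshold was 0 of those tested under every alternative run, of which 8 changed a setting and 6 left out a library; the stricter filter removed Fgf4. Over all genes the count was 9 in the reported fit. It was 14 without a filter on low counts, 40 with DESeq2, 3 with limma-voom, 3 without the robust option, 12 with the replicate block, and 2 to 6 when a library was left out. Dropping Sd/Sd replicate 1 left 3 calls, Sd/Sd replicate 2 left 6 and Sd/Sd replicate 3 left 5. Dropping WT replicate 1 left 4 calls, WT replicate 2 left 2 and WT replicate 3 left 3. The replicate block changed no call of a member. The cause of these differences in count was not tested.

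Every member changed sign in at least 1 alternative fit, also those furthest from 0, such as Fgf18 and Fgf8. Changed settings turned only members with log2 fold changes near 0, and the others turned when a library was left out. Fgf3 was at -0.043 with limma-voom and at -0.0057 with the replicate block, Etv5 at -0.00016 with limma-voom and Dusp6 at -0.00019 with library totals only. With each library left out in turn, the log2 fold change ran from -0.17 to 0.28 for Fgf3, -0.45 to 0.023 for Fgf4, -0.60 to 0.10 for Fgf8, -0.44 to 0.20 for Fgf17, -0.81 to 0.17 for Fgf18, -0.19 to 0.083 for Spry2, -0.28 to 0.16 for Spry4, -0.037 to 0.11 for Dusp6, -0.19 to 0.089 for Etv4 and -0.076 to 0.23 for Etv5. The lowest adjusted p of a member in any fit was 0.802, for Etv5 without Sd/Sd replicate 2. In that fit 1 member and 8 of 90 pathway genes had an unadjusted edgeR p under 0.05. In every other fit 0 members did. The share of all genes at that p without Sd/Sd replicate 2 was not computed. Among the members, Fgf4 rested on the fewest counts, 29 to 53 a library, and the others on at least 169. The interval of the log2 fold change was narrowest for Dusp6 and widest for Fgf18.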

Other observations

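Some genes of the pathway lists, chosen after their values were seen, had the same lowest library as Fgf8 or as Fgf18. Of all genes tested, 19.0% were lowest in Sd/Sd replicate 2 and 24.5% in Sd/Sd replicate 3. The genes named here are therefore examples only, and how many pathway genes shared these lowest libraries was not counted. Il17rd, a membrane inhibitor of FGF signalling, had 197, 119 and 259 CPM in Sd/Sd replicates 1 to 3, against 167, 182 and 210 CPM in WT. Dusp4, a phosphatase of ERK, had 156, 96.5 and 191 CPM in Sd/Sd, against 110, 134 and 148 CPM in WT. In both, Sd/Sd replicate 2 was the lowest library and Sd/Sd replicate 3 the highest, as for Fgf8, Fgf17 and Fgf3, and neither passed the genotype test (log2 fold changes 0.04 and 0.18, SE 0.30 and 0.27, edgeR adjusted p = 1.00 each).

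Lrig1, an inhibitor of receptor tyrosine kinases, had 65.7, 77.7 and 22.4 CPM in Sd/Sd, against 64.0, 39.6 and 51.2 CPM in WT, and Fgfbp3, which encodes a secreted FGF-binding protein, had 5.75, 11.2 and 1.45 CPM in Sd/Sd, against 7.11, 2.78 and 4.501 CPM in WT. Both were lowest in Sd/Sd replicate 3, as was Fgf18, and highest in Sd/Sd replicate 2, as were the somite markers (log2 fold changes 0.10 and 0.36, SE 0.51 and 0.76, edgeR adjusted p = 1.00 each).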
